A study of Mus musculus with 12 samples.

Results

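The genes described here are the regulatory T cell transcription factor Foxp3 together with genes of the regulatory and CD4 T cell lineages, namely Ikzf2, Ikzf4, Ccr8, Cd4, Zbtb7b and Cd40lg. They were taken by gene symbol from a table of 56941 genes. Each of the 7 symbols matched 1 gene ID, and all 7 genes passed the filter on low counts that left 18657 genes for testing. They were picked because earlier results of the same libraries had shown several of them lower in asGM1-positive cells, so the difference between the populations is described below without a test, and the response to treatment is tested.

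The libraries are bulk RNA-seq of intratumoral CD8+ T cells from wild type C57BL/6J mice bearing Panc02 tumours. Panc02 is a mouse line of pancreatic cancer. All groups shared the sort for DAPI-negative (viable), CD45.2+ and CD8+ cells. The 4 groups were asGM1+ cells under anti-PD-1, asGM1+ cells under isotype ctrl, asGM1- cells under anti-PD-1 and asGM1- cells under isotype ctrl, with 3 libraries each. The marker asGM1 stands for asialo-GM1, a surface glycolipid, and anti-PD-1 blocks an inhibitory receptor of T cells. Neither the age of the mice, the dose nor the time of treatment was given in the labels, and no gate on CD4 or CD3 was named. The labels do not say that replicates were separate mice, and every p-value therefore refers to the spread among libraries, part of which may be technical.

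Foxp3 is the transcription factor that specifies regulatory T cells, which restrain other lymphocytes and are common in tumours, mostly within the CD4 lineage. In the thymus, ThPOK, the product of Zbtb7b, commits cells to the CD4 lineage, while Runx3 silences Cd4 and commits cells to the CD8 lineage. CD8+ cells that express Foxp3 are also known. Helios and Eos, the products of Ikzf2 and Ikzf4, are Ikaros family factors that act beside Foxp3 in regulatory T cells, CCR8 is a chemokine receptor of tumour regulatory T cells and of other activated T cells, and CD40 ligand, the product of Cd40lg, is the signal by which activated CD4 T cells license B cells and dendritic cells.

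Promoter windows were available from RefSeq for 3 of the 7 genes, and those of Foxp3 and Ccr8 are shown because these genes gave the widest difference between the populations and the difference between the treatments that passed the test. Each window holds 300 bases on the plus strand of GRCm38.p6, written 5′ to 3′. Capitals mark matches, on either strand, to the letters TGTGGT of the Runx motif, to TGTTTAC of the forkhead motif, to the core GGAAAA of NFAT sites and to TATAAA of the TATA box, and no window holds overlapping matches. The Foxp3 windows lie at chrX:7579426-7579725 (upstream start) and chrX:7580233-7580532 (downstream start), and the Ccr8 window at chr9:120091883-120092182.
Foxp3 upstream start: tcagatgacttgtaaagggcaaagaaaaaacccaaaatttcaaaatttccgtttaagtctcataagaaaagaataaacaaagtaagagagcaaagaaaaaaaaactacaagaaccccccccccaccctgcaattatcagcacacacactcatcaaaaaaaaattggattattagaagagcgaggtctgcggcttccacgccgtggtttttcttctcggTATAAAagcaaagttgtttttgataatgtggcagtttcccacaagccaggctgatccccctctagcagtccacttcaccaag
Foxp3 downstream start: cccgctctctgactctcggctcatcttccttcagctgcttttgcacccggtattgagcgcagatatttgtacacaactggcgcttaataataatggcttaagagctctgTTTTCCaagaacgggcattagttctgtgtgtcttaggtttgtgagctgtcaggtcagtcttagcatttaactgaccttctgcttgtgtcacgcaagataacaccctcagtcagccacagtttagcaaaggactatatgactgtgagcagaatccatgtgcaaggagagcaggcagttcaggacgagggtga
Ccr8: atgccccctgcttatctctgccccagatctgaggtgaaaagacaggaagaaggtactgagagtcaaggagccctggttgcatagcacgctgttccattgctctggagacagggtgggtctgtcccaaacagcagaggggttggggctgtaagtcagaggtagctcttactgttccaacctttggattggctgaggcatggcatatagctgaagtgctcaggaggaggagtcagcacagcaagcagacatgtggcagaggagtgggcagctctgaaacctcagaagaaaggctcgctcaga
The upstream Foxp3 window held 1 TATA match, the downstream one held 1 match to the NFAT letters on the opposite strand, and the Ccr8 window held no match to any of the 4 motifs. Among 32851 promoter windows of the same length, 13.6% held the TATA letters, 23.4% the NFAT letters, 16.8% the Runx letters and 3.65% the forkhead letters. A match describes the letters only and says nothing of binding in these cells.

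Library totals ran from 58.1 to 73.2 M counts, where M stands for mega. Levels are given as CPM, counts per 1 M counts after TMM scaling, so that 3 counts, the largest mean that an observed 0 allows at the usual confidence, lay between 0.0406 and 0.0524 CPM. Both anti-PD-1 replicate 2 libraries stood apart in the heat shock gene Hspa1a, a near-identical copy of Hspa1b whose reads may be shared, with 146 CPM in asGM1-positive and 151 CPM in asGM1-negative cells, against 22.5 to 32.6 CPM in the other 4 anti-PD-1 libraries and 188 to 440 CPM in the isotype libraries. The 8 CD8 T cell markers, which check the sorted cell type, were high in every library and summed to 9195 to 11755 CPM in anti-PD-1 asGM1-positive, 11611 to 13071 CPM in isotype asGM1-positive, 10045 to 11517 CPM in anti-PD-1 asGM1-negative and 10996 to 11540 CPM in isotype asGM1-negative libraries.

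Foxp3, the factor that defines regulatory T cells, was lower in asGM1-positive cells under both treatments, at a mean of 5.63 ± 1.86 CPM in anti-PD-1 asGM1-positive, 3.22 ± 1.22 in isotype asGM1-positive, 39.4 ± 18.4 in anti-PD-1 asGM1-negative and 29.0 ± 12.7 in isotype asGM1-negative libraries (SD, n = 3 each). Single libraries had 3.54, 6.22 and 7.13 CPM in anti-PD-1 asGM1-positive cells, against 23.0, 59.3 and 36.0 CPM in anti-PD-1 asGM1-negative cells. Under isotype they had 1.91, 3.43 and 4.32 CPM in asGM1-positive cells, against 41.9, 28.5 and 16.5 CPM in asGM1-negative cells. The highest asGM1-positive library, at 7.13 CPM, lay below the lowest asGM1-negative library, at 16.5 CPM, so the populations did not overlap. These levels rest on 246, 356 and 495 counts in anti-PD-1 asGM1-positive libraries, 111, 247 and 283 counts in isotype asGM1-positive libraries, and 1222 to 3483 counts in asGM1-negative libraries. The fitted log2 fold change of asGM1-positive over asGM1-negative cells was -2.81 under anti-PD-1 and -3.17 under isotype, or 7.01-fold and 8.98-fold lower. Fewer cells that express a gene and less of its RNA per cell cannot be told apart in bulk samples, for Foxp3 or for any gene below.

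Under treatment, Foxp3 in asGM1-positive cells averaged 5.63 CPM with anti-PD-1 and 3.22 CPM with isotype, a log2 fold change of 0.80 ± 0.43 (SE; edgeR adjusted p = 0.326). In asGM1-negative cells the values were 39.4 CPM with anti-PD-1 and 29.0 CPM with isotype, a log2 fold change of 0.44 ± 0.42 (edgeR adjusted p = 0.588). In both populations the anti-PD-1 and isotype libraries overlapped, and neither difference passed. Leaving out single libraries moved the asGM1-negative log2 fold change between 0.02 and 0.81. Averaged over the populations the log2 fold change was 0.62 ± 0.30 (edgeR adjusted p = 0.182).

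**Figure D1:**
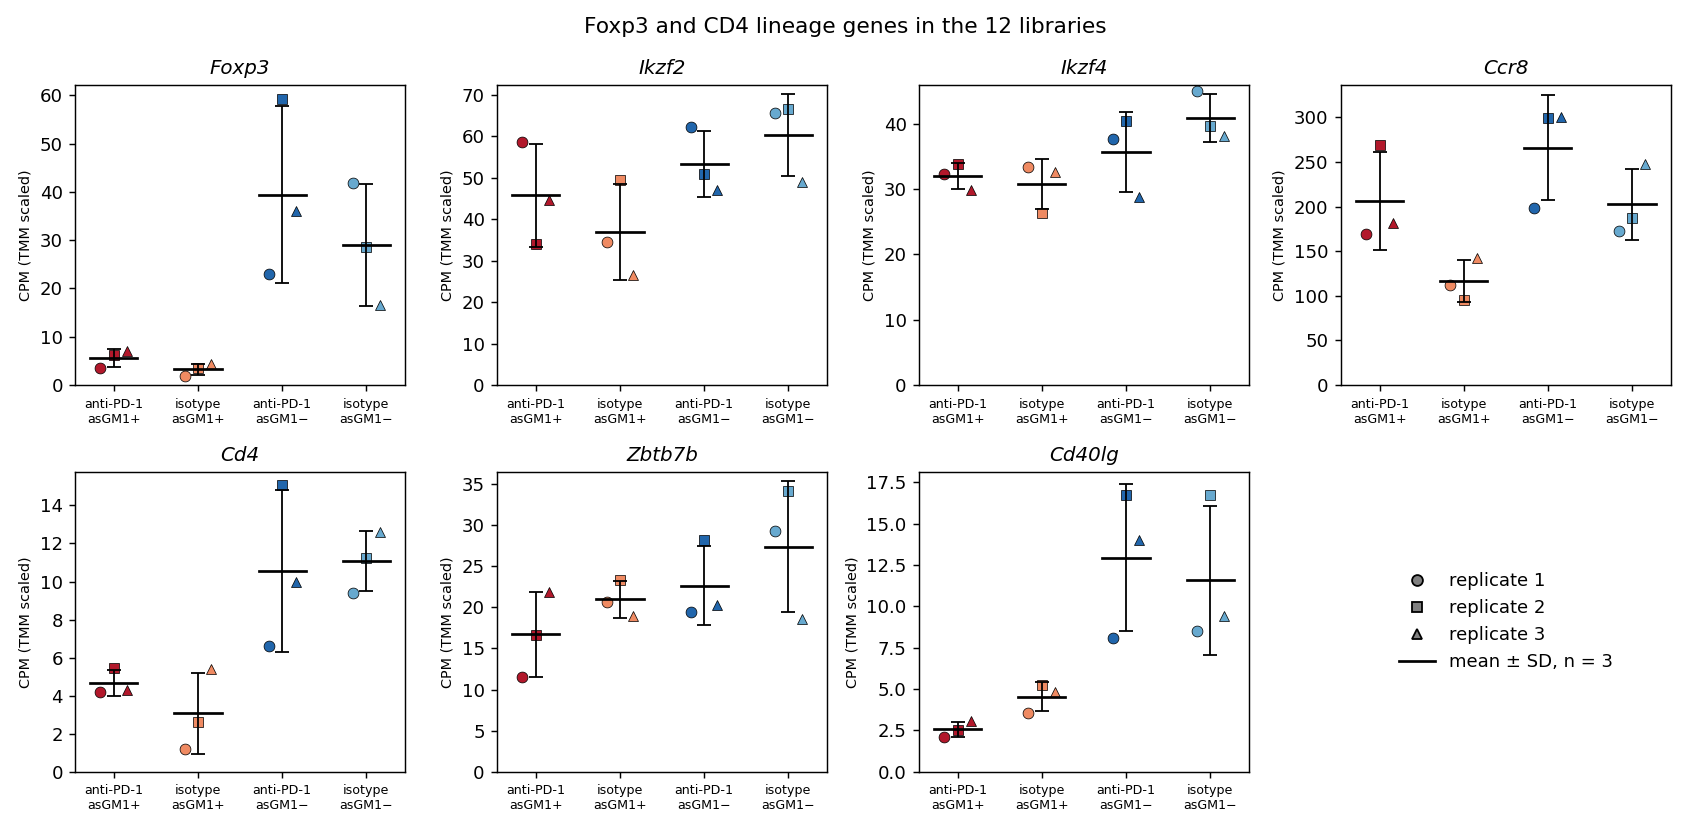
CPM (y axis, TMM scaled, starting at 0) of the 7 genes in the 12 libraries, grouped on the x axis by treatment and asGM1 population. Symbols are replicates 1 to 3, lines and bars are mean ± SD (n = 3). Foxp3, Cd4 and Cd40lg are lower in all 6 asGM1-positive than in all 6 asGM1-negative libraries, while the other 4 genes overlap between the populations under at least 1 treatment.

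In GENCODE M21 (GRCm38), Foxp3 shares its locus with Flicr on the same strand and with Ppp1r3f, Ccdc22 and Gm36995 on the opposite strand, and use of strand in counting was not stated. Flicr, a noncoding RNA that lowers Foxp3 expression, held 0 to 0.726 CPM over all libraries. Ccdc22 averaged 31.8, 32.0, 30.5 and 24.1 CPM in anti-PD-1 asGM1-positive, isotype asGM1-positive, anti-PD-1 asGM1-negative and isotype asGM1-negative cells, and Ppp1r3f 1.72, 2.40, 2.67 and 1.76 CPM in the same order. Gm36995 averaged 5.07, 3.28, 6.38 and 4.13 CPM in that order, lower in asGM1-positive cells under each treatment but with overlapping ranges. The part of shared reads in the level of Foxp3 was not tested. The other genes that share a locus with an annotated neighbour are Ikzf2, Ikzf4 and Zbtb7b, whose values are uncertain to the extent that reads are shared, while Cd4, Ccr8 and Cd40lg overlap no annotated gene there.

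Ikzf2, which encodes Helios, overlapped between the populations under both treatments. It had 58.7, 34.0 and 44.6 CPM in anti-PD-1 asGM1-positive libraries, against 62.4, 50.9 and 47.1 CPM in anti-PD-1 asGM1-negative libraries. Under isotype it had 34.6, 49.4 and 26.7 CPM in asGM1-positive libraries, against 65.6, 66.5 and 49.1 CPM in asGM1-negative libraries. The lowest levels were in asGM1-positive libraries, and the log2 fold changes of asGM1-positive over asGM1-negative cells were -0.22 under anti-PD-1 and -0.71 under isotype. The response to anti-PD-1 was 0.31 ± 0.24 in asGM1-positive cells (log2 scale, SE; edgeR adjusted p = 0.521) and -0.18 ± 0.24 in asGM1-negative cells (edgeR adjusted p = 0.733), and neither passed.

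Ikzf4, which encodes Eos, stayed between 26.3 and 45.0 CPM in all 12 libraries. It had 32.3, 33.8 and 29.8 CPM in anti-PD-1 asGM1-positive libraries and 37.7, 40.5 and 28.7 CPM in anti-PD-1 asGM1-negative libraries, which overlapped. Under isotype it had 33.3, 26.3 and 32.6 CPM in asGM1-positive libraries and 45.0, 39.6 and 38.0 CPM in asGM1-negative libraries, where all asGM1-positive libraries were the lower ones. Its population log2 fold changes were -0.15 under anti-PD-1 and -0.41 under isotype. The response to anti-PD-1 was 0.06 ± 0.14 in asGM1-positive (edgeR adjusted p = 0.880) and -0.20 ± 0.14 in asGM1-negative cells (edgeR adjusted p = 0.459).

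Ccr8, the chemokine receptor, had the highest level of the 7 genes per exon length and rose with anti-PD-1 on average over the populations. In asGM1-positive cells it had 169, 269 and 181 CPM with anti-PD-1, against 112, 94.9 and 142 CPM with isotype. In asGM1-negative cells it had 198, 299 and 301 CPM with anti-PD-1, against 173, 187 and 248 CPM with isotype. The asGM1-positive groups did not overlap, with every anti-PD-1 library above every isotype library, and the asGM1-negative groups did. The average log2 fold change was 0.61 ± 0.16, or 1.52-fold (edgeR adjusted p = 0.0218). This fit counted same-numbered libraries of a treatment as independent, though they deviated together across the populations. Treatment was not fitted with these libraries as pairs. The SE and p of this and every other average over the populations may therefore be too small. Of the 7 genes only Ccr8 passed in this average contrast, and 18.1% of all genes tested did, so 1 of 7 is no more than the share of all genes.

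The call for Ccr8 did not hold in every fit. Without both anti-PD-1 replicate 2 libraries the average log2 fold change was 0.44 (edgeR adjusted p = 0.104), in a fit that called 10.8% of all genes, and it also missed the threshold without any one of 5 single libraries, at edgeR adjusted p = 0.0505 to 0.0591. These were isotype asGM1-negative replicates 1 and 2, anti-PD-1 asGM1-negative replicates 2 and 3 and anti-PD-1 asGM1-positive replicate 2. In asGM1-positive cells alone the log2 fold change was 0.82 ± 0.23, or 1.77-fold (edgeR adjusted p = 0.0517), just short of the threshold, while DESeq2 put it past the threshold at an adjusted p of 0.00550, as it did 12.1% of all genes. By edgeR it passed there without isotype asGM1-negative replicate 3 (adjusted p = 0.0476), isotype asGM1-positive replicate 3 (adjusted p = 0.0424) or anti-PD-1 asGM1-negative replicate 1 (adjusted p = 0.0413). In asGM1-negative cells it was 0.39 ± 0.23 (edgeR adjusted p = 0.338). Between the populations Ccr8 was lower in asGM1-positive cells, at log2 fold changes of -0.37 under anti-PD-1 and -0.80 under isotype.

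**Figure D2:**
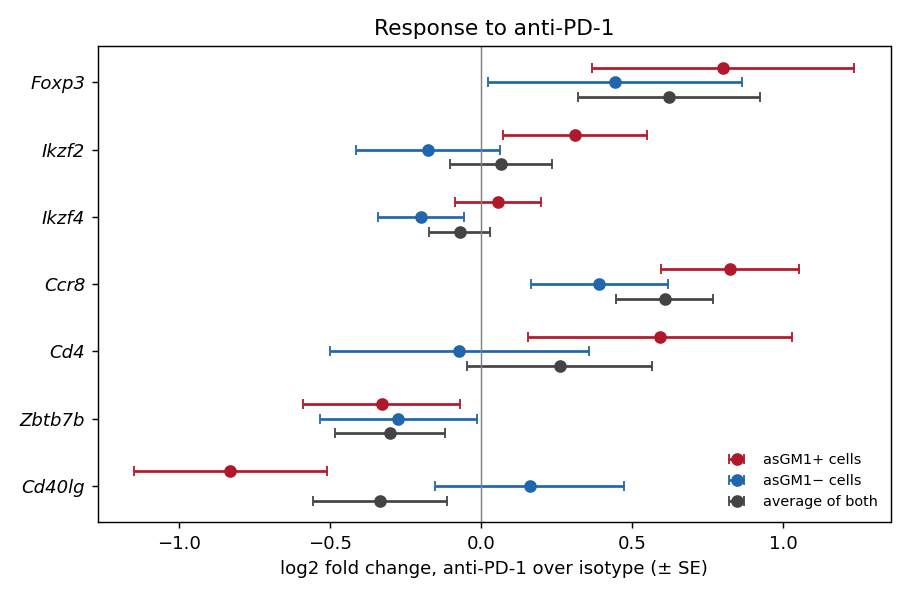
Log2 fold change of anti-PD-1 over isotype (x axis, ± SE) for each of the 7 genes (y axis) in asGM1-positive cells, in asGM1-negative cells and averaged, from edgeR. Only the averaged value of Ccr8, 0.61 ± 0.16, passed the adjusted threshold; Cd40lg lies at -0.83 in asGM1-positive and 0.16 in asGM1-negative cells.

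Ccl1, which encodes a chemokine ligand of CCR8, moved the other way from its receptor. It had 7.24, 15.1 and 12.2 CPM in anti-PD-1 asGM1-positive cells, against 133, 106 and 111 CPM in isotype asGM1-positive cells. In asGM1-negative cells it had 14.1, 20.6 and 15.1 CPM with anti-PD-1, against 212, 171 and 170 CPM with isotype. The treatments did not come near each other in either population, and the average log2 fold change was -3.41 ± 0.18, or 10.6-fold lower (edgeR adjusted p = 8.59e-07). A list of 6 ligand and receptor genes was also read, not all of them for ligands or receptors of the 7 proteins. Among them, Ccl1 fell, as did 9.02% of all genes, and Il16, which encodes a ligand of CD4, rose, as did 9.12%, in this average contrast. The log2 fold change of Il16 was 0.30 ± 0.07 (edgeR adjusted p = 0.0130). Without both replicate 2 libraries it was 0.23 and did not pass (edgeR adjusted p = 0.0785). The other 4 did not pass, among them Cd40, at -0.74 ± 0.45 (edgeR adjusted p = 0.293), and Ccl8, another ligand of CCR8 in the mouse, at 0.78 ± 0.67 (edgeR adjusted p = 0.472). Between the populations, Ccl22, which encodes a ligand of CCR4, was the 1 gene of the 6 called, lower in asGM1-positive cells under anti-PD-1 (-2.44 ± 0.54, edgeR adjusted p = 0.0494), a call lost in most alternatives. Over all genes, 0.654% were lower there. The paired fit instead called Ccl1 lower in asGM1-positive cells under anti-PD-1 (-0.57, edgeR adjusted p = 0.0335) and under isotype (-0.66, edgeR adjusted p = 0.0199), and Il16 lower under anti-PD-1 (-0.27, edgeR adjusted p = 0.0346).

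**Figure D3:**
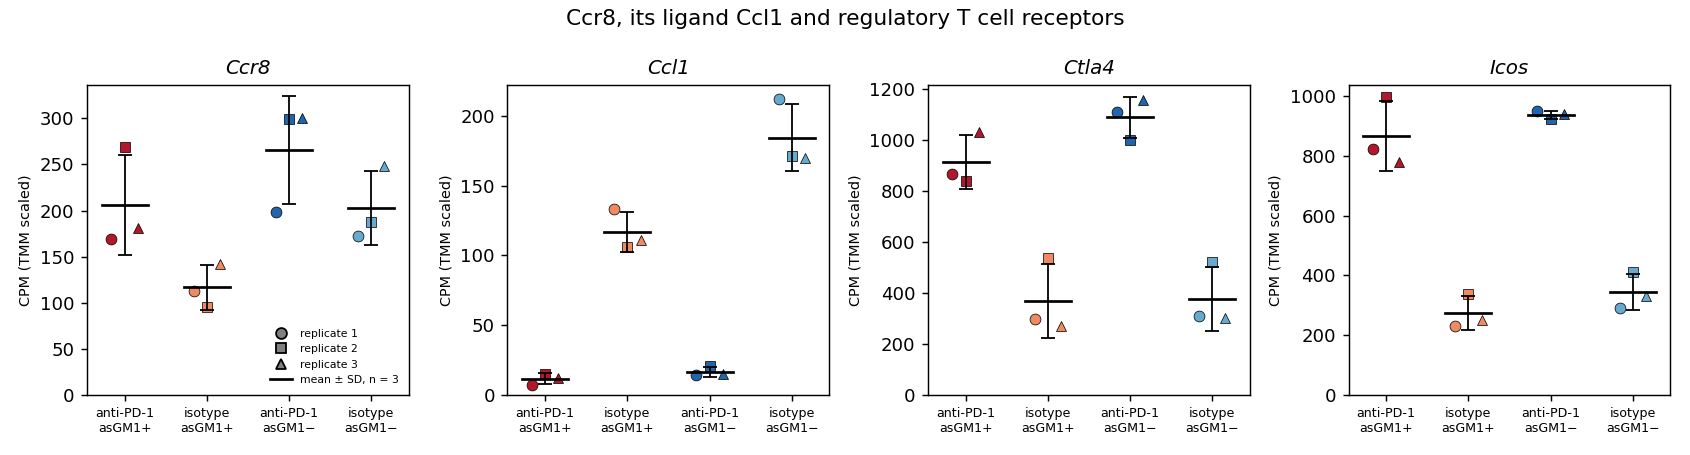
CPM (y axis, TMM scaled, starting at 0) of Ccr8, its ligand Ccl1, the inhibitory receptor gene Ctla4 and the costimulatory receptor gene Icos in each library. Libraries are grouped by treatment and asGM1 population (x axis), with mean ± SD (n = 3). Ccl1 stays at or below 20.6 CPM in the 6 anti-PD-1 libraries and at or above 106 CPM in the 6 isotype libraries, while Ctla4 and Icos are higher with anti-PD-1.

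Cd4, which encodes the coreceptor of helper T cells, was low beside Cd8a. It had 4.20, 5.43 and 4.31 CPM in anti-PD-1 asGM1-positive cells, against 6.61, 15.1 and 9.99 CPM in anti-PD-1 asGM1-negative cells. Under isotype it had 1.20, 2.62 and 5.41 CPM in asGM1-positive cells, against 9.42, 11.2 and 12.6 CPM in asGM1-negative cells. All 6 asGM1-positive libraries lay below all 6 asGM1-negative ones, with log2 fold changes of -1.18 under anti-PD-1 and -1.85 under isotype. Expressed as a share of Cd8a counts, Cd4 made up 0.231 to 0.318% in anti-PD-1 asGM1-positive, 0.0467 to 0.245% in isotype asGM1-positive, 0.384 to 0.810% in anti-PD-1 asGM1-negative and 0.435 to 0.594% in isotype asGM1-negative libraries. Anti-PD-1 left Cd4 without a passing difference, at a log2 fold change of 0.59 ± 0.44 in asGM1-positive (edgeR adjusted p = 0.496) and -0.07 ± 0.43 in asGM1-negative cells (edgeR adjusted p = 0.951).

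Zbtb7b, whose product ThPOK commits thymocytes to the CD4 lineage, overlapped between the populations under both treatments. It had 11.6, 16.7 and 21.9 CPM in anti-PD-1 asGM1-positive cells and 19.4, 28.2 and 20.3 CPM in anti-PD-1 asGM1-negative cells. Under isotype it had 20.7, 23.3 and 18.9 CPM in asGM1-positive cells and 29.3, 34.2 and 18.6 CPM in asGM1-negative cells. The population log2 fold changes were -0.44 under anti-PD-1 and -0.38 under isotype. It did not pass for treatment, at log2 fold changes of -0.33 ± 0.26 in asGM1-positive (edgeR adjusted p = 0.537) and -0.27 ± 0.26 in asGM1-negative cells (edgeR adjusted p = 0.591).

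Cd40lg, the CD40 ligand gene, had the interaction value farthest from 0 among the 7 genes, though it did not pass. It had 2.10, 2.52 and 3.05 CPM in anti-PD-1 asGM1-positive cells, against 3.56, 5.26 and 4.80 CPM in isotype asGM1-positive cells. In asGM1-negative cells it had 8.05, 16.7 and 14.0 CPM with anti-PD-1, against 8.50, 16.8 and 9.44 CPM with isotype. Every anti-PD-1 library lay below every isotype library in asGM1-positive cells, and the asGM1-negative groups overlapped. The log2 fold change was -0.83 ± 0.32 in asGM1-positive (edgeR adjusted p = 0.159) and 0.16 ± 0.31 in asGM1-negative cells (edgeR adjusted p = 0.819), where it was -0.069 without both replicate 2 libraries. The difference between these responses was -0.99 ± 0.45, with an unadjusted p of 0.0470 and an adjusted p of 0.697 in edgeR, and so did not pass. Between the populations Cd40lg was 5.05-fold lower in asGM1-positive cells under anti-PD-1 and 2.54-fold lower under isotype.

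In asGM1-positive cells alone, 0 of the 7 genes passed for treatment by edgeR, where 6.73% of all genes did, and in asGM1-negative cells 0 of 7 passed, where 8.57% of all genes did. At an unadjusted p under 0.05, Ccr8 and Cd40lg passed in asGM1-positive cells, as did 21.0% of all genes. By groups that did not overlap, 1 of 7 was higher in asGM1-positive cells with anti-PD-1, where 11.8% of all genes were, and 1 of 7 was lower, where 12.2% were. The interaction called 0 of 7 genes and 0 of 18657 genes by edgeR, with 1329 of 18657 (7.12%) at an unadjusted p under 0.05, 136 (0.729%) by DESeq2 and 0 by limma voom. Apart from Cd40lg, the members' interaction log2 values ran from -0.06 ± 0.37 for Zbtb7b to 0.66 ± 0.61 for Cd4. In simulated counts for the asGM1-negative treatment contrast, 37.5% of genes changed by 1 on the log2 scale and 67.7% of those changed by 2 were recovered. The changed genes were drawn at random over all levels. The simulation made 108 calls among 18109 genes, where the data gave 1598 of 18657. These rates are therefore not those of the 7 genes, and a member's missing call does not exclude a change.

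The members' differences between the populations had backgrounds of their own, read here only as context because the genes were chosen on them. By groups that did not overlap, 3 of 7 were lower in asGM1-positive cells under anti-PD-1, where 9.51% of all genes were, and 5 of 7 under isotype, where 8.40% were. The 3 under anti-PD-1 were Foxp3, Cd4 and Cd40lg, which Ikzf4 and Ccr8 joined under isotype. Over all 6 against 6 libraries, Foxp3, Cd4 and Cd40lg were lower, where 1.11% of all genes were.

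Foxp3 was set against Cd4 within each library, a ratio that does not depend on library scaling. The ratio of Foxp3 to Cd4 counts was 0.842, 1.14 and 1.66 in anti-PD-1 asGM1-positive cells, against 1.59, 1.31 and 0.799 in isotype asGM1-positive cells. In asGM1-negative cells it was 3.48, 3.94 and 3.60 with anti-PD-1, against 4.45, 2.54 and 1.31 with isotype. The 3 anti-PD-1 asGM1-negative libraries were close together, whereas the isotype ones ranged widely, and the treatments overlapped in both populations. On the log2 scale the ratio differed by -0.02 between treatments in asGM1-positive cells (exact two-sided permutation p = 1) and by 0.58 in asGM1-negative cells (exact two-sided permutation p = 0.4), where 3 against 3 libraries cannot give a p below 0.1.

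**Figure D4:**
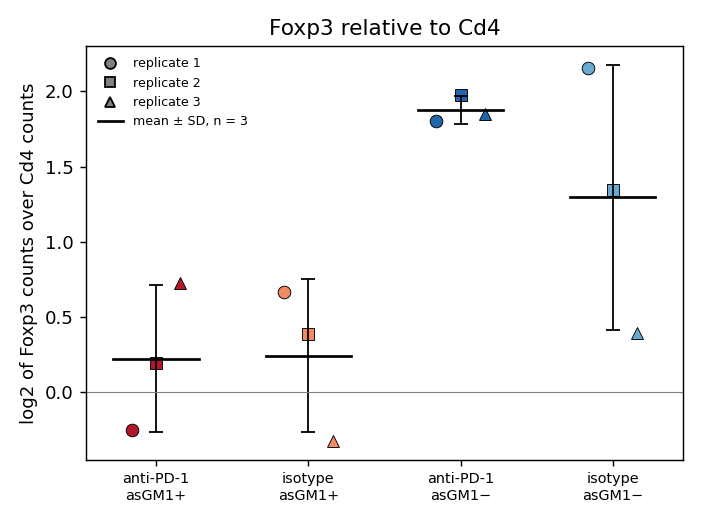
Log2 ratio of Foxp3 to Cd4 counts (y axis) in each library, by treatment and asGM1 population (x axis), with symbols for replicates. The anti-PD-1 asGM1-negative libraries average 1.88 ± 0.09 and the isotype asGM1-negative libraries 1.30 ± 0.88, with overlap, against 0.22 ± 0.49 and 0.24 ± 0.51 in anti-PD-1 and isotype asGM1-positive libraries (SD, n = 3 each).

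Levels can be compared between genes only per length, here as CPM per kb of merged exons in GENCODE M21, which may differ from the annotation used for counting. In isotype asGM1-negative cells Ccr8 stood at 172 ± 33.9 CPM per kb, followed by Cd40lg at 9.25 ± 3.61, Ikzf4 at 6.82 ± 0.609, Foxp3 at 6.33 ± 2.77, Ikzf2 at 5.20 ± 0.845, Zbtb7b at 4.89 ± 1.43 and Cd4 at 2.75 ± 0.395 (SD, n = 3). Apart from Ccr8 and the step from Zbtb7b to Cd4, neighbours in this order overlapped within their SDs. In isotype asGM1-positive cells Ccr8 stood at 99.1 ± 20.4 CPM per kb and Foxp3 was the lowest, at 0.704 ± 0.267, beside Cd4 at 0.763 ± 0.530. With anti-PD-1, Foxp3 stood at 1.23 ± 0.407 CPM per kb in asGM1-positive and 8.61 ± 4.02 in asGM1-negative cells. Cd8a stood at 661 ± 51.6 CPM per kb in isotype asGM1-positive and 580 ± 16.6 in isotype asGM1-negative cells, far above every member.

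Within groups, Ikzf2 and Ccr8 varied in opposite directions from library to library. After each group's mean was subtracted from log2 CPM, libraries with more Ikzf2 had less Ccr8, at Pearson's r = -0.91 and Spearman's rho = -0.94 over 12 libraries. Both had an exact permutation p of 0.00231 over 1296 orders within groups, and an adjusted p of 0.0486 over the 21 pairs of members. The r was -0.93 without the 2 libraries farthest from the median of Ikzf2 and -0.90 without the anti-PD-1 replicate 2 libraries. Of 18656 other genes, 14 (0.075%) had an r with Ccr8 at or below that of Ikzf2, and 58 (0.311%) had one as far from 0. This comparison was chosen after the values were seen. Libraries of the same treatment and number deviated together, so the 12 libraries are not fully independent. The 1296 orders shuffled each group on its own and did not keep such libraries together. The permutation p-values may therefore be too small, and the adjusted one lies close to the threshold.

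No other pair of members passed this adjustment, which rests on the same orders. Foxp3 and Zbtb7b had r = 0.71 (exact permutation p = 0.0347, adjusted p = 0.292), and Foxp3 and Cd4 had r = 0.60 (exact permutation p = 0.0802, adjusted p = 0.292). Both are positive, so a library with more Foxp3 than its group tended to have more of the other gene, within the limits of these p-values.

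**Figure D5:**
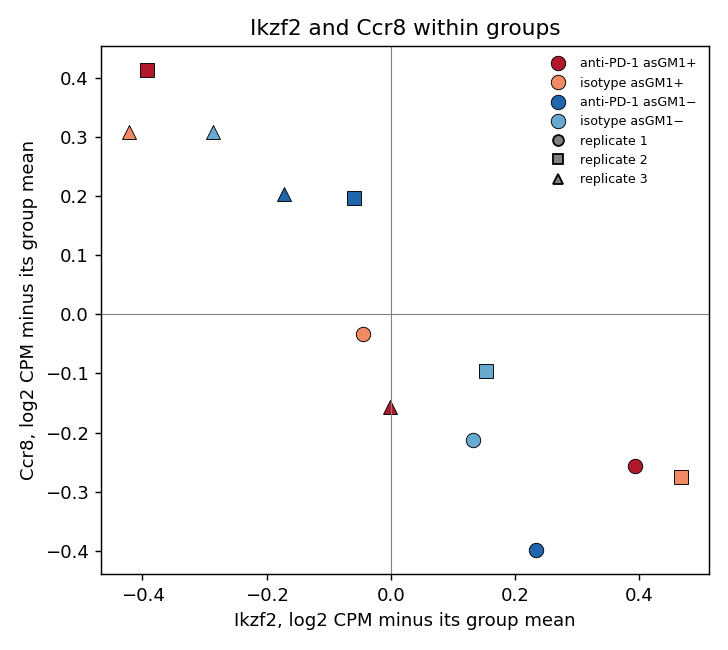
Log2 CPM minus the group mean of Ikzf2 (x axis) and Ccr8 (y axis) in the 12 libraries, coloured by group and with symbols for replicates. The points fall along a descending line, at Pearson's r = -0.91.

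Over the 12 libraries, the genes whose log2 CPM was most like that of Foxp3, among 10294 genes whose mean log2 CPM reached 1, were H2-Oa (r = 0.95), Slco3a1 (0.94), Tnfaip8l2 (0.92), Actr6 (0.91) and Gramd1b (0.91). Within groups their r with Foxp3 was 0.35 for H2-Oa, 0.54 for Slco3a1, 0.64 for Tnfaip8l2, 0.76 for Actr6 and 0.62 for Gramd1b, each lower than over all libraries. For Cd4 the most alike were Ccr7, the receptor that guides T cells to lymph nodes (0.93), Slco3a1 (0.90), Lysmd1 (0.89), Sh3bp5 (0.89) and Man1c1 (0.88). Within groups their r with Cd4 was 0.74 for Ccr7, 0.71 for Slco3a1, 0.89 for Lysmd1, 0.53 for Sh3bp5 and 0.75 for Man1c1.

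Most of the other regulatory T cell genes did not pass between the populations, but a larger share passed than over all genes. This list and those below were written with earlier results of these libraries known. The larger share is therefore read only as context and is no test of the list. Of 23 measured genes in a list of 24, 1 was higher and 3 were lower in asGM1-positive cells under isotype, where 1.31% of all genes were called, 0.364% higher and 0.943% lower. Nrp1, a semaphorin receptor of thymic regulatory T cells, averaged 96.3 ± 15.0 CPM in asGM1-positive and 187 ± 33.4 CPM in asGM1-negative cells (log2 fold change -0.95 ± 0.15, edgeR adjusted p = 0.0104). Tnfrsf4, which encodes the costimulatory receptor OX40, was lower too (-1.18 ± 0.21, edgeR adjusted p = 0.0217), as was Ebi3, a cytokine subunit of regulatory T cells (-0.98 ± 0.20, edgeR adjusted p = 0.0425). Entpd1, which encodes the ectonucleotidase CD39, was higher in asGM1-positive cells (0.68 ± 0.09, edgeR adjusted p = 0.00422), opposite to Foxp3. The list's median log2 fold change was -0.28, against 0.00 over all genes. With same-numbered libraries of a treatment taken as pairs, 7 of the 23 passed, where 3.94% of all genes did, adding Tnfrsf9 (higher), Itgae and Penk (lower), and with only the 6 isotype libraries 1 passed, which was Entpd1. Leaving out replicate 1 or replicate 2 of the isotype asGM1-negative group, or replicate 3 of the isotype asGM1-positive group, brought the count to 2, and both Tnfrsf4 and Ebi3 missed the threshold in several such fits.

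Under anti-PD-1, 1 of the 23 genes was higher in asGM1-positive cells and 2 were lower, where 1.58% of all genes were called, 0.927% higher and 0.654% lower. Itgae, the integrin subunit CD103, averaged 2.40 ± 0.588 CPM in asGM1-positive and 21.5 ± 6.88 CPM in asGM1-negative cells (log2 fold change -3.16 ± 0.29, edgeR adjusted p = 0.00225). Entpd1 was higher by 0.47 ± 0.09 (edgeR adjusted p = 0.0263) and Ebi3 lower by -0.99 ± 0.20 (edgeR adjusted p = 0.0367). The paired fit called 5, where it called 4.78% of all genes, adding Tnfrsf9 (higher) and Lrrc32 (lower), and without both replicate 2 libraries 1 passed, which was Itgae, where 0.0819% of all genes did. It was also 1 without any single one of the anti-PD-1 libraries other than asGM1-positive replicate 3, with which Entpd1 and Ebi3 missed the threshold. Il2ra, which encodes the alpha chain of the interleukin-2 receptor, did not pass under either treatment, at log2 fold changes of 0.12 ± 0.08 under anti-PD-1 (edgeR adjusted p = 0.699) and -0.10 ± 0.08 under isotype (edgeR adjusted p = 0.670).

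Averaged over the treatments, 1 of the 23 genes was higher in asGM1-positive cells, where 1.55% of all genes were, and 5 were lower, where 2.04% were. More of these genes passed for treatment, and so did more of all genes. Averaged over the populations, 7 of the 23 rose, where 9.12% of all genes did, and 2 fell, where 9.02% did. Icos, a costimulatory receptor gene, averaged 867 ± 116 CPM in anti-PD-1 and 272 ± 56.9 CPM in isotype asGM1-positive cells, and 938 ± 13.4 CPM in anti-PD-1 and 344 ± 60.8 CPM in isotype asGM1-negative cells (log2 fold change 1.56 ± 0.11, edgeR adjusted p = 7.73e-06). Ctla4, an inhibitory receptor gene, rose by 1.42 ± 0.19 (edgeR adjusted p = 0.000403), and Prdm1, Tnfrsf1b, Areg, Tigit and Nt5e rose as well, the last of them past the threshold in only some of the alternatives. Itgae fell by 2.93 ± 0.20 on the log2 scale (edgeR adjusted p = 5.01e-06) and Capg by 0.69 ± 0.09 (edgeR adjusted p = 0.000444). Il2ra, at 0.13 ± 0.06 (edgeR adjusted p = 0.134), Tnfrsf18, at -0.21 ± 0.13 (edgeR adjusted p = 0.292), Nrp1, at 0.09 ± 0.10 (edgeR adjusted p = 0.594), and Lrrc32, at -0.57 ± 0.24 (edgeR adjusted p = 0.127), did not pass. The list's median was 0.36, against -0.02 over all genes. Which cells of these libraries expressed the listed genes was not tested, so their rise is no measure of regulatory T cells.

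Of 26 measured regulators and partners of Foxp3, 11 rose with anti-PD-1 on average, where 9.12% of all genes did, 1 fell, where 9.02% did, and 14 did not pass. Satb1, a chromatin organiser, averaged 224 ± 14.9 CPM in anti-PD-1 and 70.3 ± 7.68 CPM in isotype asGM1-positive cells (average log2 fold change 1.43 ± 0.08, edgeR adjusted p = 9.73e-07). Nr4a2, a nuclear receptor induced by T cell receptor signals, rose by 1.08 ± 0.11 (edgeR adjusted p = 8.03e-05), Runx1 by 1.06 ± 0.16 (edgeR adjusted p = 0.00111) and Stat5b by 0.69 ± 0.10 (edgeR adjusted p = 0.000664), while the methyltransferase gene Ezh2 fell by 0.37 ± 0.07 (edgeR adjusted p = 0.00306). Between the populations, 0 of 26 passed under anti-PD-1, and under isotype 3 were lower in asGM1-positive cells, namely Satb1, Bach2 and Foxo1, where 0.943% of all genes were. Bach2 and Foxo1 missed the threshold in several alternatives, and 1 of the 3 passed without both anti-PD-1 replicate 2 libraries, without any one of the isotype asGM1-negative libraries, or without replicate 1 of the isotype asGM1-positive group. With only the 6 isotype libraries all 3 missed it, Satb1 at an edgeR adjusted p = 0.0584, Bach2 at 0.102 and Foxo1 at 0.153. The paired fit called 2 under anti-PD-1, Dnmt1 (0.65, edgeR adjusted p = 0.00185) and Ezh2 (0.38, edgeR adjusted p = 0.0413), both higher in asGM1-positive cells. Under isotype it called 5, adding Foxp1 (-0.49, edgeR adjusted p = 0.00713) and Nr4a3 (-1.21, edgeR adjusted p = 0.0147), both lower.

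Among 14 genes of the choice between the CD4 and CD8 fates, 4 rose with anti-PD-1 on average, where 9.12% of all genes did, and 2 fell, where 9.02% did, so that the number that fell is close to the share of all genes. Lef1, a factor of early and memory T cells, rose by 2.13 ± 0.13 (edgeR adjusted p = 2.75e-06). Cd8a fell by 0.34 ± 0.06 on the log2 scale (edgeR adjusted p = 0.00381) and Runx3, the CD8 lineage factor that silences Cd4, by 0.32 ± 0.09 (edgeR adjusted p = 0.0237), a call that was lost without both anti-PD-1 replicate 2 libraries (edgeR adjusted p = 0.0621) and without any one of 5 single libraries. Tcf7, a partner of Lef1, was the 1 gene of the list called between the populations under anti-PD-1, where 0.654% of all genes were lower. It had 7.52 ± 4.85 CPM in asGM1-positive and 73.1 ± 15.1 CPM in asGM1-negative cells (log2 fold change -3.28 ± 0.49, edgeR adjusted p = 0.0100). Tcf7 and Lef1 were lower under isotype, where 0.943% of all genes were. These isotype calls numbered 1 without both anti-PD-1 replicate 2 libraries and 0 to 2 with single libraries left out, being 0 without replicate 1 or replicate 3 of the isotype asGM1-negative group, or replicate 1 or replicate 2 of the isotype asGM1-positive group. The paired fit added Tox, higher in asGM1-positive cells under anti-PD-1 (0.55, edgeR adjusted p = 0.0237), and Gata3, lower under isotype (-0.65, edgeR adjusted p = 0.0119). Runx3 did not pass between the populations, at -0.16 ± 0.12 under anti-PD-1 (edgeR adjusted p = 0.732) and 0.16 ± 0.12 under isotype (edgeR adjusted p = 0.665). Of 18 helper T cell subset genes, 13 were measured. With anti-PD-1 on average 2 rose, where 9.12% of all genes did, and 1 fell, where 9.02% did, so both counts are near the share of all genes. Bcl6, a factor of follicular helper cells, rose by 1.53 ± 0.18 (edgeR adjusted p = 0.000214) and Il12rb2 by 1.61 ± 0.23 (edgeR adjusted p = 0.000707). Ccr6 fell, a call that was lost in most alternatives, among them without isotype asGM1-positive replicate 3 (-1.02). Il4, Il5, Il17a, Il17f and Il22 fell below the filter on low counts. Between the populations 0 of the 13 passed under either treatment, where 1.58% of all genes did under anti-PD-1 and 1.31% under isotype. The paired fit called Bcl6 lower in asGM1-positive cells under anti-PD-1 (-1.05, edgeR adjusted p = 0.0405). The remaining Ikaros family genes, Ikzf1, Ikzf3 and Ikzf5, passed neither between the populations under either treatment nor for treatment on average, with Ikzf3 at 0.49 ± 0.14 between the populations under isotype (edgeR adjusted p = 0.131). The paired fit put Ikzf1 (-0.49, edgeR adjusted p = 0.0339) and Ikzf3 (0.50, edgeR adjusted p = 0.0494) past the threshold there.

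Markers of other cells moved with the populations beside Foxp3. Their lists too were written with earlier results known, so counts beside shares of all genes are context and no test. Of 12 plasmacytoid dendritic cell markers, 7 were lower in asGM1-positive cells under anti-PD-1, where 0.654% of all genes were, and 10 under isotype, where 0.943% were. Without both anti-PD-1 replicate 2 libraries 2 passed under anti-PD-1, where 0.0819% of all genes did. The count under anti-PD-1 was 4 without asGM1-negative replicate 2 or asGM1-positive replicate 2 or 3, and under isotype it was 3 without isotype asGM1-negative replicate 1. The list summed to 750 to 954 CPM in anti-PD-1 asGM1-positive, 755 to 806 CPM in isotype asGM1-positive, 822 to 933 CPM in anti-PD-1 asGM1-negative and 893 to 1112 CPM in isotype asGM1-negative libraries. Most of each sum was Irf8, at means of 639, 571, 547 and 576 CPM in that order, so the sums say little of the other markers. Siglech, the defining marker of that list, had 0.0720, 0.489 and 0 CPM in anti-PD-1 asGM1-positive libraries, against 31.5, 34.8 and 25.1 CPM in anti-PD-1 asGM1-negative libraries. Under isotype it had 0, 0.236 and 0 CPM in asGM1-positive libraries, against 71.3, 46.2 and 58.2 CPM in asGM1-negative libraries, and Spib and Cd209d were at 0 in all 6 asGM1-positive libraries. Macrophage markers went the other way, with 6 of 10 higher in asGM1-positive cells under anti-PD-1, where 0.927% of all genes were, and 7 of 10 under isotype, where 0.364% were. Without both anti-PD-1 replicate 2 libraries 0 passed under anti-PD-1 by edgeR, where 0.0819% of all genes did. The count was 2 without asGM1-negative replicate 2 alone and 4 under isotype without any one of the isotype asGM1-negative libraries. The macrophage sums were 176 to 308 CPM in anti-PD-1 asGM1-positive, 208 to 298 in isotype asGM1-positive, 74.7 to 114 in anti-PD-1 asGM1-negative and 70.2 to 82.0 in isotype asGM1-negative libraries. Conventional dendritic cell markers had 2 of 6 lower in asGM1-positive cells under each treatment. Over all genes, 0.654% were lower under anti-PD-1 and 0.943% under isotype. Without both anti-PD-1 replicate 2 libraries 0 of these markers passed under anti-PD-1, where 0.0819% of all genes did, and 1 under isotype, where 0.865% did. With so few calls over all genes, that 0 says little of these markers. B cell markers had 0 of 2 measured called under anti-PD-1, where 1.58% of all genes were, and 1 of 2 lower under isotype, where 0.943% were. Both counts for conventional dendritic cells and that for B cells under isotype reached 0 without some single libraries. NK cell and platelet markers had 0 called in the unpaired edgeR fit. The paired edgeR fit called 4.78% of all genes under anti-PD-1 and 3.94% under isotype. Under isotype it called 4 conventional dendritic cell markers, and Klrb1c and Gzma higher. Under anti-PD-1 it called Cd79b lower, Eomes higher and Cd209a lower (-5.49, edgeR adjusted p = 0.0484), while Clec9a missed the threshold (edgeR adjusted p = 0.0526). The 8 CD8 T cell markers had 0 called under either treatment. The part of these other cells in the levels of Foxp3, Cd4 and Cd40lg was not tested.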

How the data were processed

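Raw counts per gene were deposited by the authors as 1 table, 1 column for each of the 12 libraries, and all columns were used. HISAT2, StringTie and mm39 are the tools and build given per the submitters' processing notes; tool versions and settings, the annotation and use of strand are not given in the sources used here. RNA was extracted with TRIzol, and SMARTer and TruSeq kits are named per the labels' protocols. Rows without a symbol (310) held at most 0.0547% of a library's counts, and 61.4% of values were 0.

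Counts of all 12 libraries were fitted with edgeR 4.0.16 (quasi-likelihood F test, default filter by group, TMM factors 0.970 to 1.04; limma 3.58.1, R 4.3.3), with a mean per group, 8 residual degrees of freedom and a common BCV of 0.336. Benjamini-Hochberg adjusted p under 0.05 over 18657 genes was the threshold, and the standard error is the log2 fold change over the root of F. DESeq2 1.42.0, limma voom, other filters and scalings and left-out libraries were alternatives. Libraries of the same treatment and number deviated together across populations (correlations of deviations from group means 0.121 to 0.298). They were therefore taken as pairs in an alternative fit, which covered the population contrasts and the interaction but not the treatment contrasts. Across treatments the correlations were -0.107 to 0.0129.

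The 7 genes and the lists were chosen with earlier results of these data known. All 7 genes are named in every comparison; from each list up to 6 genes with the smallest p in a contrast and 11 always-named genes could be named, and 5 genes most like Foxp3 and Cd4. The fit was tested on simulated data. Intervals and floors cover counting error only. The reference at hand (GRCm38) differs from mm39 and gave lengths, overlaps and promoters only.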

Additional observations from a re-analysis of the deposited data

How the results depend on the processing

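Directions and calls of the 7 genes were recomputed under other scalings, filters, tools, blocks and left-out libraries. Of these values, the 280 described without a test moved by less than the replicate spread, and of the tested ones 499 kept their direction and side of the threshold, 5 came to pass and 6 ceased to pass, all of these 5 and 6 for Ccr8, and 15 changed sign without passing. Without both anti-PD-1 replicate 2 libraries, Cd40lg in asGM1-negative cells was -0.069 and the interaction of Zbtb7b 0.13. With single libraries left out, log2 fold changes for treatment spanned 0 for Cd4 (-0.42 to 0.18) and Cd40lg (-0.069 to 0.53) in asGM1-negative cells, Ikzf4 in asGM1-positive cells (-0.036 to 0.12) and, on average, Ikzf2 (-0.050 to 0.21) and Ikzf4 (-0.12 to 0.00032, and -0.14 without both replicate 2 libraries), as did the interactions of Foxp3 (-0.0035 to 0.78) and Zbtb7b (-0.30 to 0.18). Population log2 fold changes of Foxp3 ran from -3.08 to -2.40 under anti-PD-1 and from -3.45 to -2.80 under isotype. In asGM1-positive cells the number of members called for treatment was 0, and 1 with DESeq2, 1 with the replicate number as a block (Ccr8, adjusted p = 0.0350 by edgeR) and 0 to 1 when single libraries were left out. On average it was 1, and 0 without both anti-PD-1 replicate 2 libraries and 0 to 1 when single libraries were left out. For regulatory T cell genes between populations, 3 passed under anti-PD-1, against 5 with the replicate block by pair, 1 without both replicate 2 libraries and 1 to 3 with single libraries left out; under isotype 4 passed, against 7 with that block, 1 with only the 6 libraries compared and 2 to 4 with single libraries left out. The cause was not tested. Over all genes, DESeq2 called 853, 798, 2264 and 2756 genes (population under anti-PD-1 and under isotype, treatment in asGM1-positive and in asGM1-negative cells), where edgeR called 295, 244, 1255 and 1598; the replicate block by pair called 891 and 736 for the populations, and without both replicate 2 libraries 16, 169, 604 and 791 were called. The replicate number as a block called 1356 genes for treatment in asGM1-positive and 1737 in asGM1-negative cells, and it changed no other call among the members; across treatments the numbers only name libraries. The log2 ratio of Foxp3 to Cd4 differed between treatments by -0.30 to 0.22 in asGM1-positive and 0.13 to 1.01 in asGM1-negative cells when single libraries were left out. Depth limits the low genes most, with Cd4 at 70 counts in its lowest library.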
